A study of Mus musculus with 24 samples.

Results

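The neuromuscular junction genes described here are 10 genes of the postsynaptic side of the junction: Chrna1, Chrnb1, Chrnd, Chrne and Chrng, which encode the muscle subunits of the acetylcholine receptor, and Musk, Dok7, Rapsn, Lrp4 and Colq, which encode proteins that cluster or anchor the synaptic machinery. They were chosen by gene symbol and not by a cut on their values, though earlier results of these data were known. All 10 were found among the 24537 genes of the count table. RNA-seq had been done on whole EDL and SOL muscles, predominantly fast-twitch and slow-twitch respectively, with the question here being whether OSKM (Oct4, Sox2, Klf4 and c-Myc, also called 4F) in myofibers moved these genes as loss of the nerve would.

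The mice were 2 months old and of the genotype Acta1-Cre+/4Fhet (Cre+) or Acta1-Cre-/4Fhet (Cre-), so Cre+ and Cre- mice both carried the Dox-inducible OSKM cassette and the blocked rtTA, and both drank Dox at 1 mg/ml. The treatment lasted 2.5 days, 5.5 days or 8.5 days. Cre from the Acta1 promoter, which is active in skeletal myofibers, removes the block, so Cre- mice control for Dox but not for Cre itself. Each muscle, genotype and time point had 2 libraries, 24 in 12 groups, described by the study as independent biological samples. Between 36088781 and 54679082 counts were assigned per library.

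At the neuromuscular junction, motor nerve terminals release agrin, which binds Lrp4 and activates the kinase MuSK with the help of the adaptor Dok7, and rapsyn, the product of Rapsn, then gathers acetylcholine receptors beneath the terminal. In adult fibres the receptor holds alpha, beta, delta and epsilon subunits, made from the few nuclei under the synapse, while the gamma subunit (Chrng) belongs to the fetal receptor. Loss of the nerve is known to raise Chrna1, Chrnd, Chrng and Musk along the whole fibre, together with the regulator Myog, whereas Chrne stays tied to the synapse.

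The promoters of the receptor subunits are shown because the 2 groups just named, subunits made at the synapse and subunits raised after denervation, are known for different sequence elements. RefSeq promoter sequences (GRCm38.p6, the build of the files) were at hand for 6 of the 10 genes, and the 250 bases before the annotated start are given 5′ to 3′ on the strand of each gene. Capitals mark the E-box CANNTG, which is bound by myogenic regulators such as MyoD and myogenin, and the N-box CCGGAA (searched on both strands, so also as TTCCGG), a site known for synaptic transcription through GABP. Chrnb1 lies at chr11:69795938-69796187 (minus strand), Chrne at chr11:70619195-70619444 (minus strand), Chrna1 at chr2:73580339-73580588 (minus strand) and Chrng at chr1:87205561-87205810 (plus strand).
Chrnb1: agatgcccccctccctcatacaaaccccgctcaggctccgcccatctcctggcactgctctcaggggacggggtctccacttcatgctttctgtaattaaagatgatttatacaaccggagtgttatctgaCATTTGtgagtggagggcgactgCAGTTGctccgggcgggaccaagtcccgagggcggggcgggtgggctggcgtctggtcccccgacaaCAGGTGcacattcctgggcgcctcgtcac
Chrne: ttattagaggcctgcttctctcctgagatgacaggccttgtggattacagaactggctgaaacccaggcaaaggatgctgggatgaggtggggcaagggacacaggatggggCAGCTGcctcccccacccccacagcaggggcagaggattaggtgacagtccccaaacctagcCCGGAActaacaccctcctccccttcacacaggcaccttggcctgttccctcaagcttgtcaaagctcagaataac
Chrna1: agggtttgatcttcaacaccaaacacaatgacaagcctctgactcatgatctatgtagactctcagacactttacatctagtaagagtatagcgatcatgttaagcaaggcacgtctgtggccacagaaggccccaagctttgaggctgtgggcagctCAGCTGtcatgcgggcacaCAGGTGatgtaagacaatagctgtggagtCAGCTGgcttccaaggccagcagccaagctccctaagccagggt
Chrng: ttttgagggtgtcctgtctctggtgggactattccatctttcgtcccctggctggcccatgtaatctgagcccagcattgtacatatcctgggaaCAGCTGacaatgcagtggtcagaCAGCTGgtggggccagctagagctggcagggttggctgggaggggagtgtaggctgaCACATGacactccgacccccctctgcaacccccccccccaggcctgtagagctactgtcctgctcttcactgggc

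Of these windows, only that of Chrne held the N-box, 76 bases before the start, and it also held an E-box 138 bases before the start. Chrng, Chrna1 and Chrnb1 had 3 E-boxes each, and of the other genes with a sequence Musk had 3. Dok7 had 2 windows, with 1 E-box in that at chr5:35056516-35056765. The window at chr5:35056822-35057071, nearer the start of the counted entry, had none. An N-box was found in 12% of 32851 promoter windows of the same length and an E-box in 66.2%, so an E-box match is common. A match is a description of the letters and not evidence of binding.

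OSKM levels show which libraries carried the induction. On the FPKM scale (counts scaled to exon length and to the total count of the library), Pou5f1, the gene of Oct4, was at 17.5 and 70.5 in the Cre+ EDL libraries of 2.5 days and at 57.7 and 76.2 in those of 8.5 days. It lay between 0.0163 and 0.0896 in the Cre- EDL libraries of these days. In Cre+ SOL it was lower, at 5.02 and 9.62 at 2.5 days and at 6.19 and 12.2 at 8.5 days. At 5.5 days 1 Cre+ EDL library and both Cre+ SOL libraries were low for their label, with Pou5f1 at 1.02 in that EDL library, 27.7 in the other and 0.0785 and 0.387 in SOL, so this time point is given apart. The counts do not separate the cassette from the endogenous genes. The muscles matched their labels, since the summed level of 8 slow fibre genes was 178 to 1582 FPKM over the EDL libraries and 30820 to 49886 FPKM over the SOL libraries.

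Before induction by OSKM is considered, the Cre- libraries show how the genes stood in each muscle. In Cre- EDL the most abundant per length were Rapsn (24.6 ± 2.08 FPKM, SD, n = 6), Chrnb1 (23.4 ± 4.15) and Chrne (19.2 ± 2.30), and these neighbours differed by less than the sum of their spreads. Dok7 (9.04 ± 2.44), Chrna1 (8.38 ± 1.37) and Colq (6.10 ± 0.486) followed, then Lrp4 (3.78 ± 0.489) and Chrnd (3.15 ± 0.384), then Musk (1.22 ± 0.352). Chrng was at the bottom with 0 to 18 counts per library, and a count of 0 allows up to 3 counts. In Cre- SOL the order ran from Rapsn (23.9 ± 2.87 FPKM, n = 6), Chrnb1 (16.3 ± 5.20) and Chrna1 (14.4 ± 4.11) down to Musk (4.14 ± 1.91) and Chrng (0.367 ± 0.233). The spreads over 6 libraries include differences between the 3 time points.

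**Figure D1:**
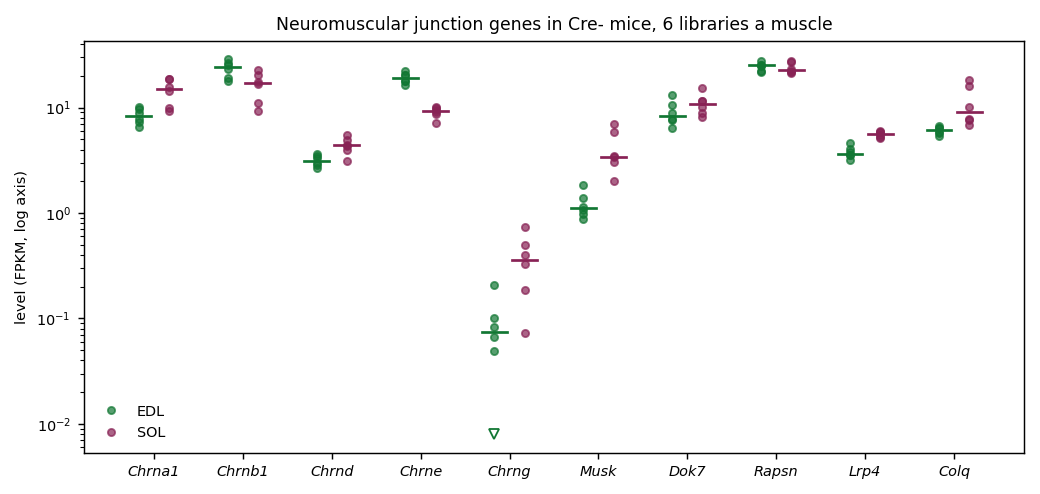
Level of each neuromuscular junction gene in FPKM (log axis) in the 6 Cre- EDL and 6 Cre- SOL libraries of 3 time points, where points are libraries, bars are medians, and the open triangle at the foot of the axis marks the EDL library in which Chrng had 0 counts. Chrne lies higher in all EDL libraries, and Musk, Lrp4 and Colq lie higher in all SOL libraries.

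EDL and SOL differed in 6 of the 10 genes in Cre- mice, with 2 higher in EDL (11.6% of 15478 genes tested were called higher) and 4 higher in SOL (13.3% called lower in EDL). A gene was called where edgeR's quasi-likelihood test gave an adjusted p under 0.05 with an absolute log2 fold change over 0.5. Chrne, the adult epsilon subunit, ranged from 16.2 to 22.4 FPKM in EDL (median 19.0) and from 7.21 to 10.1 in SOL (median 9.28), a log2 fold change of 1.15 ± 0.14 (SE, adjusted p = 5.24e-06). The ranges of the 2 muscles were apart. Chrnb1 was also higher in EDL (0.65 ± 0.12, adjusted p = 0.000282), with overlapping ranges of 18.1 to 28.6 and 9.36 to 22.6 FPKM.

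The genes that were higher in SOL included Musk and Chrng, which are also known to rise after denervation. Musk, the kinase that organises the postsynaptic membrane, ranged from 0.872 to 1.84 FPKM in EDL (median 1.11) and from 2.00 to 7.06 in SOL (median 3.44), a log2 fold change of -1.59 ± 0.19 (adjusted p = 2.53e-06). Chrng had 0 to 18 counts in EDL and 6 to 58 in SOL, with a log2 fold change of -1.89 ± 0.40 (adjusted p = 0.00103). The other genes called higher in SOL were Chrna1 (-0.65 ± 0.12) and Colq (-0.68 ± 0.14). These contrasts average 3 time points, and the gap varied between them. At 2.5 days the means in Cre- EDL and SOL were 8.10 and 9.64 FPKM for Chrna1, with overlap, and 5.90 and 7.33 FPKM for Colq. At 8.5 days they were 9.47 and 17.2 FPKM and 6.57 and 17.0 FPKM. Musk in Cre- SOL had means of 6.47, 3.27 and 2.70 FPKM at 2.5, 5.5 and 8.5 days. Dependence on day was not tested. Lrp4 passed the p limit but not the fold limit (-0.48 ± 0.09, adjusted p = 0.000248), while Chrnd, Dok7 and Rapsn were between -0.38 and 0.13. A block for mouse (EDL and SOL libraries of equal number, assumed to be from 1 mouse) changed no call among the 10. Of 12 Schwann cell markers 8 were higher in EDL, where 11.6% of all genes tested were called higher. Their summed level was 106 to 293 FPKM in Cre- EDL and 64.7 to 206 FPKM in Cre- SOL. Their part in the differences was not tested.

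The balance of the fetal and adult subunits was read as the share of Chrng in Chrng plus Chrne, each per length. It lay between 0 and 1.16% over the 12 EDL libraries and between 0.710 and 7.40% over the 12 SOL libraries. In EDL at 2.5 days it was 0.549 and 0.527% in Cre+ and 0.409 and 0.914% in Cre- libraries. At 8.5 days it was 1.16 and 0.499% in Cre+ and 0 and 0.568% in Cre- libraries. The EDL groups overlapped at both times, and the highest EDL share rests on 18 counts of Chrng. In SOL at 2.5 days the share was 5.005 and 6.28% in Cre+ and 3.58 and 3.84% in Cre- libraries, with both Cre+ libraries above. In SOL at 8.5 days it was 5.99 and 4.86% in Cre+ and 4.97 and 7.40% in Cre- libraries, which overlapped. The share was not tested by genotype.

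**Figure D2:**
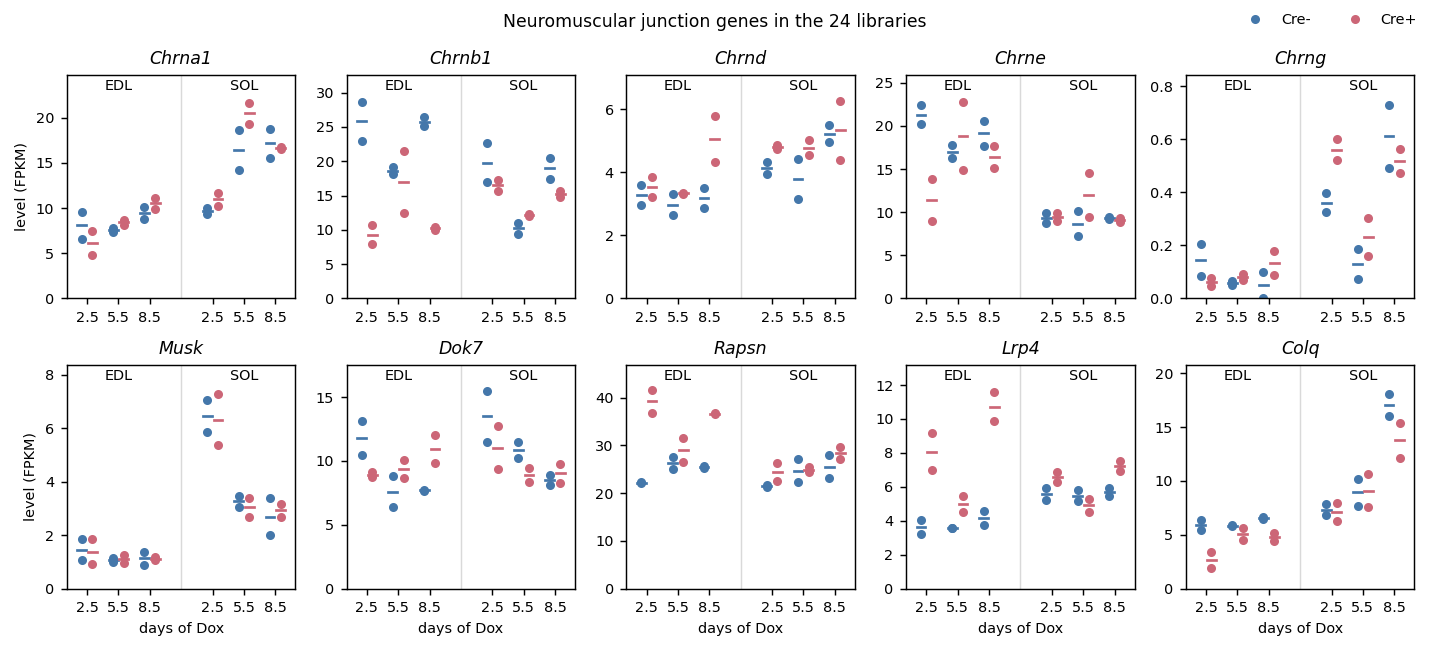
Level of each neuromuscular junction gene in FPKM (linear axes from 0, 1 scale per gene) by muscle and days of Dox, with points for the 2 libraries of a group and bars for their mean, blue for Cre- and red for Cre+. In EDL, Cre+ libraries lie below Cre- libraries for Chrnb1 and Colq and above them for Lrp4 and Rapsn at both 2.5 and 8.5 days, and in SOL the groups of Chrnb1 and Lrp4 lie closer together than in EDL.

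At 2.5 days of Dox, Chrnb1, Chrne, Chrna1, Dok7 and Colq fell in Cre+ compared with Cre- EDL, 5 of 10 where 10.2% of 15372 genes tested were called lower, and Lrp4 rose, 1 of 10 where 13.8% were called higher. Chrnd, Chrng, Musk and Rapsn were not called. The median log2 fold change of the 10 genes was -0.73, beside -0.05 over all genes tested. The groups did not overlap in FPKM for 7 of the 10 genes, where this held for 67.5% of all genes tested. In whole muscle, fewer synaptic nuclei and less RNA per nucleus cannot be told apart.

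FPKM divides by the total count, whereas the fold changes use TMM scaling, which also weighs the makeup of each library. The TMM factors were 1.15 and 1.21 in the Cre+ and 0.957 and 0.921 in the Cre- EDL libraries of 2.5 days, so a fold change lies lower than the ratio of FPKM values. With library size alone, the median over all genes moved to 0.28 at 2.5 days and to 0.16 at 8.5 days. The genes called then split into 4207 higher and 610 lower at 2.5 days, beside 2118 and 1566 by TMM, and into 1956 higher and 542 lower at 8.5 days, beside 1173 and 999. The 10 genes are read relative to TMM, and for EDL at 2.5 and 8.5 days the value by library size is given where a call or direction turned on it. Fold changes of the other listed genes are given by TMM only.

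Chrnb1 encodes the beta subunit (chr11:69784036-69795937, minus strand, mm10). It was at 10.7 and 7.87 FPKM in Cre+ and at 23.0 and 28.6 FPKM in Cre- EDL at 2.5 days. Both Cre+ libraries lay far below both Cre- libraries. The log2 fold change was -1.80 ± 0.18 (95% interval -2.19 to -1.41, adjusted p = 3.85e-05), which is 3.48-fold lower.

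Chrne encodes the epsilon subunit (chr11:70614883-70619194, minus strand). It was at 13.9 and 8.93 FPKM in Cre+ and at 20.2 and 22.4 FPKM in Cre- EDL at 2.5 days, again with no overlap, and its log2 fold change was -1.22 ± 0.20 (adjusted p = 0.00087). The other gene annotated across it, 4930544D05Rik, overlaps 997 bases on the opposite strand and had 0 to 2 counts in every library, and whether the counting used strand is not given in the sources used here. The gene with the N-box in its window was lower, as was Chrnb1, whose window has none.

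Chrna1 encodes the alpha subunit (chr2:73563281-73580338, minus strand), which holds the acetylcholine binding site and is known to rise strongly after denervation. It was at 7.50 and 4.78 FPKM in Cre+ and at 6.58 and 9.62 FPKM in Cre- EDL at 2.5 days, and the groups overlapped. The log2 fold change was -0.72 ± 0.22 (adjusted p = 0.0283). This call was lost with library size alone (-0.40, adjusted p = 0.163), in edgeR on the 4 libraries (adjusted p = 0.167) and in DESeq2 on the 4 libraries (adjusted p = 0.103). It was also lost without replicate 2 of Cre+ (-0.40) and without replicate 2 of Cre- (-0.40).

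Chrnd encodes the delta subunit (chr1:87190597-87200070, plus strand), and Chrng the gamma subunit, just downstream of it (chr1:87205811-87211835, plus strand). Chrnd was at 3.84 and 3.21 FPKM in Cre+ and at 2.97 and 3.61 FPKM in Cre- EDL at 2.5 days. The groups overlapped, and the log2 fold change was -0.23 ± 0.20 (adjusted p = 0.416), turning to 0.10 with library size alone. Chrng had 7 and 4 counts in Cre+ and 7 and 18 counts in Cre- EDL at 2.5 days, and its log2 fold change of -1.53 ± 0.75 (adjusted p = 0.153) was not resolved at this depth.

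Among the genes of the agrin pathway, Lrp4 and Dok7 moved apart. Lrp4, the agrin receptor (chr2:91457531-91513901, plus strand), was at 9.16 and 6.99 FPKM in Cre+ and at 4.06 and 3.20 FPKM in Cre- EDL at 2.5 days. Both Cre+ libraries were higher, with a log2 fold change of 0.83 ± 0.16 (adjusted p = 0.00194). Dok7, the activator of MuSK (chr5:35057084-35087831, plus strand), was at 9.16 and 8.72 FPKM in Cre+ and at 13.2 and 10.5 FPKM in Cre- EDL at 2.5 days.

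The Dok7 groups did not overlap, and the log2 fold change was -0.73 ± 0.18 (adjusted p = 0.00992). That call did not hold with library size alone (-0.40, adjusted p = 0.119), without replicate 2 of Cre+ (-0.65, adjusted p = 0.0881) or without replicate 1 of Cre- (-0.59, adjusted p = 0.0906). Musk (chr4:58285962-58374303, plus strand) was at 1.84 and 0.928 FPKM in Cre+ and at 1.84 and 1.08 FPKM in Cre- EDL at 2.5 days. It varied as much within groups as between them (-0.39 ± 0.35, adjusted p = 0.448), with an interval from -1.15 to 0.38.

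Rapsn and Colq act at the ends of the assembly, Rapsn inside the fibre and Colq in the synaptic basal lamina. Rapsn (chr2:91035627-91045729, plus strand) was at 41.6 and 36.8 FPKM in Cre+ and at 22.3 and 22.0 FPKM in Cre- EDL at 2.5 days. The groups were apart, and the log2 fold change of 0.495 ± 0.119 (adjusted p = 0.00826) lay just under the fold limit, with 0.82 (adjusted p = 0.000317) by library size alone. Colq, the collagen tail of acetylcholinesterase (chr14:31523084-31577383, minus strand), was at 3.39 and 1.88 FPKM in Cre+ and at 5.40 and 6.41 FPKM in Cre- EDL at 2.5 days. Both Cre+ libraries were lower, by a log2 fold change of -1.48 ± 0.25 (adjusted p = 0.000894).

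After 8.5 days of Dox only Chrnb1 and Lrp4 were called in EDL, 1 lower where 6.5% of genes tested were called lower and 1 higher where 7.63% were called higher. The median of the 10 genes was 0.14, beside -0.02 over all genes tested, and 7 of 10 had groups that did not overlap, beside 55.8% of all genes tested. Chrnb1 was at 10.5 and 9.99 FPKM in Cre+ and at 26.4 and 25.2 FPKM in Cre- EDL at 8.5 days. The Cre+ libraries lay together and below, at a log2 fold change of -1.51 ± 0.18 (adjusted p = 0.000186). Lrp4 was at 11.6 and 9.89 FPKM in Cre+ and at 4.60 and 3.76 FPKM in Cre-, a log2 fold change of 1.18 ± 0.16 (adjusted p = 0.000454), which is 2.27-fold higher.

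The other 8 genes did not pass the test at 8.5 days. Colq was at 4.46 and 5.15 FPKM in Cre+ and at 6.66 and 6.47 FPKM in Cre- EDL (-0.63 ± 0.24, adjusted p = 0.0988), and Chrne at 15.1 and 17.6 against 20.6 and 17.7 FPKM (-0.40 ± 0.20, adjusted p = 0.205). Their Cre+ libraries were lower without overlap. Chrnd was at 5.78 and 4.34 FPKM in Cre+ and at 2.85 and 3.51 FPKM in Cre- EDL (0.48 ± 0.20, adjusted p = 0.118). With library size alone Chrnd was called higher (0.67, adjusted p = 0.0376), and so was Rapsn (0.53, adjusted p = 0.0113).

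Rapsn by TMM was at 0.35 ± 0.12 (adjusted p = 0.0678), from 36.5 and 36.8 FPKM in Cre+ and 25.3 and 25.6 FPKM in Cre- EDL at 8.5 days. Chrna1 was at 11.1 and 9.93 against 8.80 and 10.1 FPKM (-0.03 ± 0.22, adjusted p = 0.948), turning to 0.15 with library size alone. Chrng had 18 and 8 counts in Cre+ and 0 and 8 in Cre- (1.12 ± 0.80, adjusted p = 0.384), Musk was at -0.19 ± 0.36 and Dok7 at 0.32 ± 0.18. Whether the changes differed between 2.5 and 8.5 days was not tested.

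**Figure D3:**
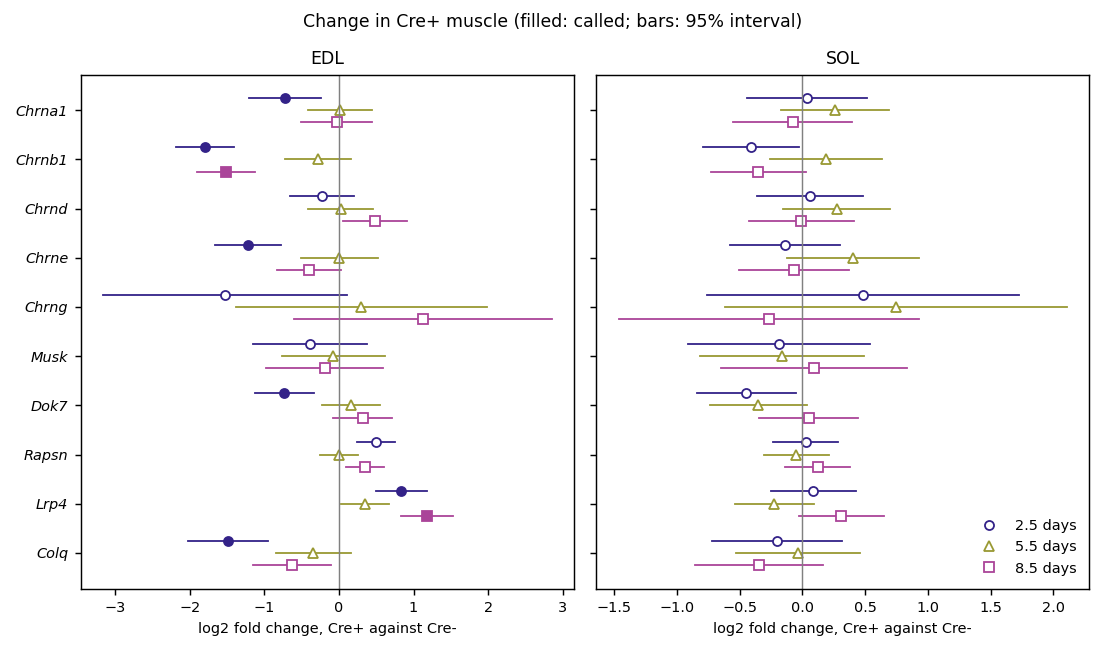
Log2 fold change of each neuromuscular junction gene in Cre+ against Cre- muscle, EDL left and SOL right, by days of Dox (edgeR, TMM), with bars for 95% intervals and filled symbols for called genes. Called genes are all in EDL, with Chrnb1 at -1.80 and -1.51 and Lrp4 at 0.83 and 1.18 at 2.5 and 8.5 days.

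In SOL none of the 10 genes was called at 2.5 days, where 0.384% of all genes tested were called, or at 8.5 days, where 0.631% were. At an unadjusted p under 0.05 the edgeR test gave 2 of the 10 genes at 2.5 days (Chrnb1 and Dok7) and 0 at 8.5 days, beside 13.4% and 6.6% of all genes tested, and DESeq2 called 0 at both times. Groups did not overlap for 5 of 10 genes at 2.5 days (54.3% of all genes tested) and for 3 of 10 at 8.5 days (35.8%). Chrnb1 was at 17.3 and 15.6 FPKM in Cre+ and at 16.9 and 22.6 FPKM in Cre- SOL at 2.5 days (-0.41 ± 0.18, adjusted p = 0.335). At 8.5 days it was at 15.6 and 14.8 against 17.4 and 20.5 FPKM (-0.35 ± 0.18, adjusted p = 0.812).

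Lrp4 in SOL was at 6.85 and 6.31 FPKM in Cre+ and at 5.23 and 5.92 FPKM in Cre- at 2.5 days, and at 7.53 and 6.93 against 5.45 and 5.95 FPKM at 8.5 days. The log2 fold changes were 0.09 ± 0.16 and 0.31 ± 0.16. Of the genes known to rise without the nerve, Musk, Chrna1 and Chrnd were between -0.19 and 0.09 at both times, although Chrna1 and Chrnd had Cre+ libraries above Cre- libraries in FPKM at 2.5 days.

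Chrng in SOL was at 0.521 and 0.601 FPKM in Cre+ (46 and 47 counts) and at 0.326 and 0.396 FPKM in Cre- (24 and 31 counts) at 2.5 days. Both Cre+ libraries were higher, but the log2 fold change of 0.48 ± 0.57 (adjusted p = 0.769) was not called, with an interval from -0.76 to 1.72. At 8.5 days Chrng was at 0.564 and 0.475 against 0.493 and 0.731 FPKM in SOL, with overlap (-0.27 ± 0.55, adjusted p = 0.999). The means of all 4 OSKM genes were lower in Cre+ SOL than in Cre+ EDL at both 2.5 and 8.5 days. Klf4 was not raised in SOL, with means of 16.6 ± 0.953 FPKM in Cre+ and 14.1 ± 4.23 FPKM in Cre- at 2.5 days (SD, n = 2; 0.08 ± 0.40, adjusted p = 0.953) and 17.7 ± 7.09 against 17.7 ± 6.90 FPKM at 8.5 days (-0.04 ± 0.40).

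The difference of the Cre+ changes between the muscles was tested directly. At 2.5 days it was called for Chrnb1 (-1.39 ± 0.25, adjusted p = 0.0116), 1 of 10 genes where 4.25% of all genes tested were called. Same-numbered libraries of the muscles deviated together from their group means, so a mouse block was fitted as well. It takes EDL and SOL of equal number as 1 mouse, which no label gives. In that fit Chrnb1 (-1.41, adjusted p = 0.00361), Chrne (-1.12, adjusted p = 0.0175) and Colq (-1.33, adjusted p = 0.0172) were called, where Chrne and Colq stood at adjusted p = 0.0534 and 0.0549 without the block.

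The call of Chrnb1 without the block was lost when replicate 1 of Cre- SOL (-1.22, adjusted p = 0.0566) or replicate 2 of Cre- EDL (-1.19, adjusted p = 0.0559) was left out. At 8.5 days 0 of 10 genes were called (0.592% of all genes tested), with Chrnb1 at -1.16 ± 0.25 (adjusted p = 0.0657) and Lrp4 at 0.87 ± 0.22 (adjusted p = 0.132). At an unadjusted p under 0.05 the edgeR test gave 2 of 10, beside 11.2% of all genes tested, and DESeq2 called Chrnb1 and Lrp4. With the block Chrnb1 was called at 8.5 days (-1.16, adjusted p = 0.0192).

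At 5.5 days no gene of the 10 was called in EDL (0.304% of 15478 genes tested) or in SOL (0% of genes tested), with 1 and 0 of 10 at an unadjusted p under 0.05 by edgeR (8.44% and 3.86% of all genes tested) and 0 called by DESeq2. Chrnb1 was at 21.5 FPKM in the Cre+ EDL library with Pou5f1 at 1.02 FPKM and at 12.4 FPKM in that with Pou5f1 at 27.7 FPKM, beside 18.1 and 19.2 FPKM in Cre-. Its log2 fold change was -0.28 ± 0.21 over both libraries and -0.72 (adjusted p = 0.167) without the library low in Pou5f1. Chrne was likewise at 22.8 and 14.9 FPKM in these Cre+ libraries, beside 16.2 and 17.7 FPKM in Cre-. Lrp4 was also higher in the library low in Pou5f1, at 5.45 and 4.52 FPKM. Both lay above the Cre- libraries, at 3.54 and 3.54 FPKM.

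The Cre+ EDL libraries of 2.5 days also differed in Pou5f1, at 17.5 FPKM in replicate 1 and 70.5 FPKM in replicate 2. All 10 genes were lower in replicate 2, among them Chrnb1 at 7.87 against 10.7 FPKM and Colq at 1.88 against 3.39 FPKM. Lrp4, which rose in Cre+ EDL, was at 6.99 against 9.16 FPKM. With 2 libraries this is a description on the FPKM scale. It was not set against the share of all genes lower in replicate 2, and it was not tested.

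Other genes of the junction were read from a list of 35, of which 34 could be tested. In EDL at 2.5 days 4 rose and 9 fell, where 13.8% of all genes tested were called higher and 10.2% lower. The median log2 fold change of the 34 was -0.23, beside -0.05 over all genes tested. Without replicate 2 of Cre+ 6 were called, without replicate 2 of Cre- 7 and without replicate 1 of Cre- 8. Ache, which encodes the acetylcholinesterase that Colq anchors, was at 23.4 and 13.7 FPKM in Cre+ and at 35.5 and 44.2 FPKM in Cre- EDL and fell by 1.42 ± 0.23 on the log2 scale (adjusted p = 0.000678). Its neighbour Ufsp1, on the same stretch of chromosome 5, fell with it (-1.50 ± 0.20, adjusted p = 0.000216).

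Erbb2, a receptor of the neuregulin pathway, rose 1.30 ± 0.19 at 2.5 days (adjusted p = 0.000344) and 1.77 ± 0.19 at 8.5 days (adjusted p = 8.67e-05) on the log2 scale. It was at 4.51 and 6.31 FPKM in Cre+ and at 1.59 and 1.88 FPKM in Cre- EDL at 2.5 days, and at 5.19 and 5.31 against 1.29 and 1.43 FPKM at 8.5 days. Its partner Erbb3 was not called (-0.50 ± 0.19, adjusted p = 0.0717 at 2.5 days), and the ligand Nrg1 had at most 21 counts in those libraries and was not tested.

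Etv5, a factor of synaptic transcription, fell at 2.5 days (-0.95 ± 0.17, adjusted p = 0.00139) and at 8.5 days (-0.55 ± 0.17, adjusted p = 0.0448), while Gabpa, whose product binds the N-box, was not called (-0.02 ± 0.19, adjusted p = 0.948 at 2.5 days). Agrn (-0.68 ± 0.23, adjusted p = 0.0412) and the sodium channel gene Scn4a (-0.78 ± 0.19, adjusted p = 0.00874) fell at 2.5 days. Utrn, whose product links the synaptic membrane to actin, rose (0.52 ± 0.16, adjusted p = 0.0309), and Lamb2 was not called (-0.42 ± 0.23). At 8.5 days 2 of 34 rose (Erbb2 and Pak1) and 5 fell (Sntb1, Lama5, Dmd, Dtna and Etv5). Of all genes tested, 7.63% were called higher and 6.5% lower at that time. At 2.5 days the 4 that rose were Erbb2, Pak1, Macf1 and Utrn.

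In SOL 0 of these 34 genes were called by edgeR at either time, with 5 at 2.5 days and 1 at 8.5 days at an unadjusted p under 0.05 (13.4% and 6.6% of all genes tested) and 0 called by DESeq2. The difference between muscles at 2.5 days was called for Ache (-1.41 ± 0.32, adjusted p = 0.0297), Ufsp1, Etv5, Dtna and Pak1, and at 8.5 days for Erbb2 (1.41 ± 0.26, adjusted p = 0.0361).

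The genes known to be induced by denervation gave counts in both directions. Of 16 listed and tested, 4 rose in EDL at 2.5 days (Ncam1, Cdkn1a, Runx1 and Kcnn3) and 1 fell (Actc1). Of all genes tested, 13.8% were called higher and 10.2% lower. The median log2 fold change of the 16 was -0.37, beside -0.05 over all genes tested. Without replicate 1 of Cre+ 4 were called higher and 5 lower. Ncam1, an adhesion molecule of denervated fibres that satellite cells also carry, was at 19.5 and 32.4 FPKM in Cre+ and at 1.60 and 2.17 FPKM in Cre- EDL (3.44 ± 0.31, adjusted p = 1.73e-05). Cdkn1a, which encodes p21 and is also a p53 target, was at 89.2 and 139 FPKM in Cre+ beside a mean of 14.8 FPKM over the 2 Cre- libraries (2.61 ± 0.21, adjusted p = 1.04e-05).

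Runx1 rose from 0.353 and 0.388 FPKM in Cre- to 1.21 and 2.13 FPKM in Cre+ EDL (1.83 ± 0.30, adjusted p = 0.000788). The cardiac actin gene Actc1 fell from 140 and 245 FPKM to 32.4 and 52.0 FPKM (-2.52 ± 0.48, adjusted p = 0.00194).

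The regulators that drive receptor genes after denervation were not called. Myog was at 2.05 and 5.37 FPKM in Cre+ and at 4.56 and 5.39 FPKM in Cre- EDL at 2.5 days (-0.73 ± 0.44, adjusted p = 0.232). Myod1 ranged from 10.6 to 33.4 FPKM within Cre+ alone (-0.43 ± 0.48). Gadd45a (-0.68 ± 0.32), Hdac4 (0.47 ± 0.23), the ubiquitin ligases Trim63 (0.20 ± 0.16) and Fbxo32 (-0.35 ± 0.29) and the developmental myosins Myh3 (-0.62 ± 0.29) and Myh8 (-0.39 ± 0.48) were not called either.

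At 8.5 days 3 of the 16 rose (Ncam1, Cdkn1a and Kcnn3) and 1 fell (Actc1), where 7.63% of all genes tested were called higher and 6.5% lower. The median of the 16 was 0.05, beside -0.02 over all genes tested. Of the 3 genes listed as lowered by denervation, Ppargc1a fell at 2.5 days (-0.98 ± 0.19, adjusted p = 0.00232) and at 8.5 days (-1.07 ± 0.19, adjusted p = 0.003). Dach2 and Hdac9 were not called at either time. Hdac9 leaned the other way in EDL, with means of 1.91 FPKM in Cre+ and 1.08 FPKM in Cre- at 2.5 days. At 8.5 days its means were 2.97 and 1.77 FPKM. Dach2 had only 4 to 32 counts in these EDL libraries. In SOL 0 of the 16 genes were called by edgeR at 2.5 or 8.5 days, with 4 and 2 at an unadjusted p under 0.05 (13.4% and 6.6% of all genes tested), while DESeq2 called 1 and 2. The changes of Ncam1 (2.71 ± 0.40, adjusted p = 0.00467) and Cdkn1a (1.72 ± 0.29, adjusted p = 0.00807) differed between the muscles at 2.5 days.

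**Figure D4:**
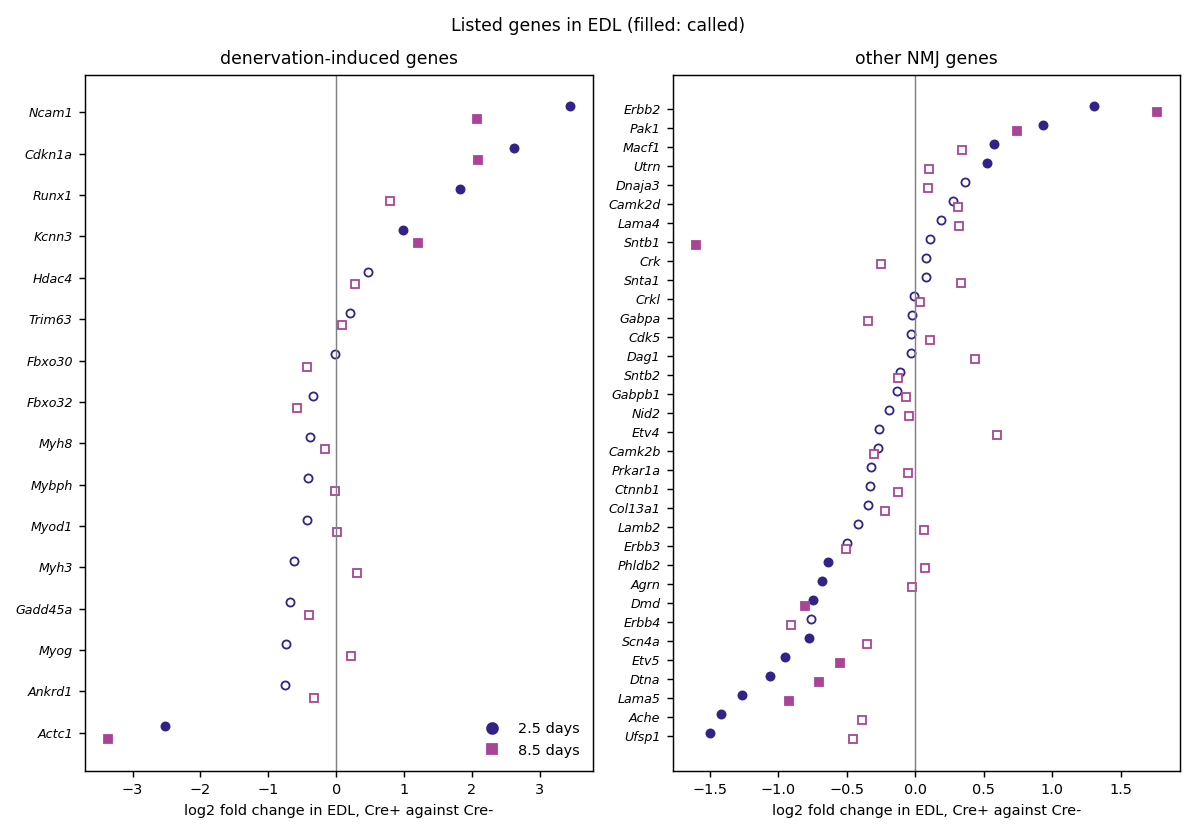
Log2 fold change in EDL, Cre+ against Cre-, of the denervation-induced genes (left) and the other junction genes (right) that were tested, at both 2.5 and 8.5 days (edgeR, TMM), with 1 line per gene and filled symbols for called genes. Ncam1 and Cdkn1a lie at 3.44 and 2.61 and Actc1 at -2.52 at 2.5 days, and Myog and Myod1 have open symbols at both times.

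Of the 4 junction genes that are known to rise after denervation, Chrna1, Chrnd, Chrng and Musk, 0 were called higher in Cre+ EDL or SOL at any of the 3 times by edgeR, and 0 by DESeq2. Of all genes tested, edgeR called 13.8% higher in EDL at 2.5 days and 7.63% at 8.5 days, so 0 of 4 lies near these shares. In SOL and at 5.5 days at most 0.631% were called in either direction. At an unadjusted p under 0.05 the count was 1, Chrnd in EDL at 8.5 days, where 29.8% of all genes tested had such a p in either direction. The upper ends of their 95% intervals in EDL at 2.5 days were -0.24, 0.20, 0.10 and 0.38 on the log2 scale. At 8.5 days they were 0.45, 0.91, 2.85 and 0.59, so that a rise of Chrng of several-fold was not detectable at its depth. Chrnd at 8.5 days was called higher with library size alone, as given above.

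Genes of other cell types were set beside the falls in EDL at 2.5 days, when 13.8% of all genes tested were called higher and 10.2% lower. The nerve terminal genes Chat, Slc18a3 and Slc5a7 had at most 3 counts in every library. Of the 4 motor axon genes tested, Nefh (47 and 82 counts in Cre+, 4 and 18 in Cre-) and Uchl1 rose and Prph fell. The summed level of the 10 listed was 6.14 to 9.63 FPKM in Cre+ and 3.26 to 4.71 FPKM in Cre- EDL. Nearly all of it came from Uchl1 (means of 6.50 and 1.92 FPKM) and Prph (0.949 and 1.89 FPKM). Uchl1 was at a mean of 10.6 FPKM in Cre- SOL, so the sum was not read as a measure of axons. Of 12 Schwann cell markers, Cadm4 fell (-1.11 ± 0.31, adjusted p = 0.0185) and the median log2 fold change was -0.73, as low as that of the junction genes, with a summed level of 192 to 232 FPKM in Cre+ and 169 to 248 FPKM in Cre-. The part of Schwann cells in the falls was not tested.

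None of 6 fibroblast, 6 macrophage or 5 tendon markers was called in EDL by edgeR at 2.5 or at 8.5 days, and 0 of them had an unadjusted p under 0.05. Likewise 0 of 9 satellite cell and myoblast markers were called at 2.5 days (2 at an unadjusted p under 0.05, beside 39% of all genes tested), with 0.02 as their median log2 fold change. At 8.5 days Des, which is abundant in fibres, rose alone of the 9, where 7.63% of all genes tested were called higher. Of 6 endothelial markers 3 fell by TMM at 2.5 days (Pecam1, Cdh5 and Emcn), where 10.2% of all genes tested were called lower. On the FPKM scale, which uses library size, they differed little. Means in Cre+ and Cre- were 24.1 and 27.3 for Pecam1, 26.5 and 30.7 for Cdh5, and 8.27 and 10.6 for Emcn, whose groups overlapped. The summed level of the 6 was 73.7 to 75.4 FPKM in Cre+ and 79.4 to 92.0 FPKM in Cre-. Fast fibre genes fell in 5 of 8 cases, beside the same 10.2% of all genes tested. The largest fall was that of Pvalb (-1.71 ± 0.49, adjusted p = 0.0211). The summed level of the 8 was 65635 to 82156 FPKM in Cre+ and 99136 to 109272 FPKM in Cre- EDL. Chrnb1 and Chrne, which were higher in EDL than in SOL, fell along with these genes, and the part of fibre type in their falls was not tested.

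Among 11 subunits of neuronal acetylcholine receptors, 5 could be tested and 2, Chrnb3 and Chrna4, were called in EDL at 2.5 days. Of all genes tested, 13.8% were called higher and 10.2% lower. Chrnb3 passed the count filter only through Cre+ EDL libraries, where it was high. The count of 2 of 5 is therefore not weighed against these shares. Chrnb3 had 153 and 634 counts in Cre+ and 2 and 0 counts in Cre- EDL, and 5 and 51 against 0 and 0 at 8.5 days. Its highest count in a SOL library of these days was 4. Chrna4 fell (-1.54 ± 0.46, adjusted p = 0.0248), from 60 and 98 to 33 and 37 counts.

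The genes whose pattern was most like that of each junction gene were found by Pearson correlation of log2 CPM over the 24 libraries, which share muscle, genotype and time. Candidates were 11329 genes with a mean of at least 1 FPKM. Chrne was most like Ache (r = 0.96) and Ufsp1 (r = 0.95), and Chrnb1 was most like Wfdc1 (r = 0.95) and Sypl2 (r = 0.93). Musk was most like Acot11 (r = 0.94), and Colq was most like Slc6a8 (r = 0.93) and Mlxipl (r = 0.93). Dok7 had no close match, at 0.75 with Inf2. Among the 10 themselves, the most alike were Chrna1 and Colq (r = 0.85), Chrnd and Chrng (r = 0.71) and Chrna1 and Chrnd (r = 0.70), while Chrnb1 and Lrp4 (r = -0.69) and Musk and Rapsn (r = -0.69) ran opposite.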

How the data were processed

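RNA-seq libraries of 24 mouse EDL and SOL muscles (Cre+ and Cre-, 3 time points, 2 per group) were analysed. The authors deposited raw counts per gene, made by aligning reads to mm10 with STAR 2.5.3a and counting exon reads with HOMER (reads were checked with FastQC 0.11.2, per the submitters' processing notes); replicates were kept apart. Values in FPKM were computed here from the deposited counts, exon length and total count. Tests used edgeR 4.0.16 under R 4.3.3 (quasi-likelihood, TMM, minimum count 10, Benjamini-Hochberg over all genes tested). A joint fit held the 16 libraries of days 2.5 and 8.5 (15372 genes), and results for 5.5 days and EDL against SOL came from all 24 (15478 genes). DESeq2 1.42.0 was an alternative. On simulated data 200 genes were changed in EDL at 2.5 days (15118 genes tested). Of these edgeR recovered 85 of 100 at 2-fold and 100 of 100 at 3-fold, with 10 others called. All genes were simulated with the same spread, lower than the common spread of the data, and only well-counted genes were changed. Recovery of low-count genes such as Chrng was not simulated.

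A count of 0 allows up to 3 counts, which covers counting error only. EDL and SOL libraries of the same number correlated in their deviations from group means (0.173 to 0.445, 6 pairs, 15478 genes). No label gives such libraries as coming from the same mouse, so the pairing of muscles by number was an assumption. An exact test of 2 against 2 libraries cannot go below p = 0.333. The genes, lists and tests were chosen with earlier results of these data known. Named genes were the 10 junction genes, OSKM, a fixed set of junction and denervation genes, the 3 largest called changes of each list in EDL at 2.5 days, and the 3 genes most correlated with each junction gene. Kcnn3, Pak1, Macf1, Dtna, Sntb1, Lama5, Dmd, Ppargc1a and Des were named after their values were seen. A listed denervation gene is not reported here and was left out of its list.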

Additional observations from a re-analysis of the deposited data

Results flagged for a closer look

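The Cre+ change differed between EDL and SOL, by edgeR's test of the difference itself, for 9 of the listed genes. Over all genes tested 4.25% were called at 2.5 days and 0.592% at 8.5 days. At 2.5 days of Dox the difference (EDL minus SOL, log2) was -1.39 for Chrnb1 (adjusted p = 0.0116), -1.41 for Ache (adjusted p = 0.0297), -1.20 for Ufsp1 (adjusted p = 0.0341), -1.19 for Etv5 (adjusted p = 0.0183) and -0.89 for Dtna (adjusted p = 0.039), all of which fell in EDL and were not called in SOL. It was 2.71 for Ncam1 (adjusted p = 0.00467), 1.72 for Cdkn1a (adjusted p = 0.00807) and 1.32 for Pak1 (adjusted p = 0.047), which rose in EDL. At 8.5 days it was 1.41 for Erbb2 (adjusted p = 0.0361). OSKM was lower in Cre+ SOL than in Cre+ EDL, and its part in these differences was not tested.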

How the results depend on the processing

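Of 256 alternatives to the 15 calls among the 10 genes, 240 kept the call and its direction, and no called value changed sign. Chrnb1, Chrne and Colq in EDL at 2.5 days and Chrnb1 and Lrp4 in EDL at 8.5 days were called under each of 15 alternatives, Lrp4 at 2.5 days under 14, Dok7 under 11 and Chrna1 under 9. A log2 limit of 1 left 3 genes called in EDL at 2.5 days (6 as reported) and 3 between EDL and SOL in Cre- mice (6 as reported). Library size alone gave 4 genes in EDL at 8.5 days (2 as reported). For the difference of the change between muscles at 2.5 days (1 gene as reported), DESeq2 gave 4 genes, and library size alone, no filter on low counts, at least 10 counts in every library and all 24 libraries gave 3 each. At 8.5 days (0 as reported) DESeq2 gave 2 and no filter gave 1. The cause was not tested.

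The mouse block, pairing EDL and SOL of equal number by assumption, gave 3 genes for that difference at 2.5 days and 1 at 8.5 days. Cre+ and Cre- libraries of the same number were not paired (correlations of deviations -0.169 to 0.0578), and a block on that number left the counts of called genes at 6, 2, 0 and 0 in EDL and SOL at 2.5 and 8.5 days and at 0 at 5.5 days.

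With 1 library left out, the genes called ranged from 5 to 6 in EDL at 2.5 days, from 2 to 3 in EDL at 8.5 days and from 6 to 7 between EDL and SOL in Cre- mice, and were 0 to 0 for the other comparisons of Cre+ with Cre- and for the difference at 8.5 days. For the difference at 2.5 days they ranged from 0 (without replicate 1 of Cre- SOL, or without replicate 2 of Cre- EDL) to 4 (without replicate 1 of Cre+ EDL). In EDL at 8.5 days the added gene was Chrng without replicate 2 of Cre-, where the only control library left had 0 counts. Lone libraries were assumed to vary like the others.

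Over all genes the counts were less stable. The difference at 2.5 days called 654 genes as reported, 1457 by DESeq2, 1157 with all 24 libraries, 1001 with library size alone (921 higher, 80 lower, beside 517 and 137), 1019 with the mouse block, and 117 to 1785 with 1 library left out. At 8.5 days it called 91, with 347 by DESeq2, 175 with the mouse block and 2 to 183 with 1 library left out. The 4 libraries of EDL alone gave 2434 calls by edgeR at 2.5 days (3684 as reported) and 1021 at 8.5 days (2172 as reported). In SOL DESeq2 called 370 genes at 2.5 days (59 by edgeR) and 171 at 8.5 days (97 by edgeR), and in EDL at 5.5 days 172 (47 by edgeR). Library size alone gave 1457 higher and 2527 lower between EDL and SOL in Cre- mice, beside 1799 and 2058. A log2 limit of 1 left 1761 calls in EDL at 2.5 days, 898 at 8.5 days and 1757 between the muscles.

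Depth limited Chrng, with 0 to 58 counts per library.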
